A study of Mus musculus with 4 samples.

Results

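The 10 apolipoprotein genes Apoa1, Apoa2, Apoa4, Apoa5, Apob, Apoc1, Apoc2, Apoc3, Apoe and Apom were examined in the livers of mouse fetuses at E14.5, among 18205 genes with a name and a tested probe. The fetuses came from C57BL/6J dams that received, during gestation only, either a control diet (CD), with fat, protein and carbohydrate giving 4.3%, 19.2% and 67.3% of its calories, or a high-fat diet (HFD), in which these gave 60%, 20% and 20%. Each diet was represented by 2 one-color arrays, and the labels give the samples as female fetal liver. The design text calls the samples of a group biological replicates, but the number of fetuses and dams behind an array is not given in the sources used here. Members were found by matching the transcript of every non-control probe to the 10 gene names, which gave 17 probes: 1 for each of 4 genes, 2 for each of 5 genes, and 3 for Apoc3. All 17 passed the filters on low and variable signal.

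Apolipoproteins are the protein part of lipoproteins, the particles that carry triglyceride and cholesterol in blood. Some give the particle its structure, others are ligands for receptors that take particles up, and others turn the lipases of the vessel wall on or off. The liver is a main source of most of them, and in the fetus the visceral yolk sac and the intestine also make several, while macrophages are a further source of Apoe. In the RefSeq genes of assembly GRCm38.p6, Apoa1, Apoc3, Apoa4 and Apoa5 lie side by side on chromosome 9, and Apoc2, Apoc1 and Apoe lie close together on chromosome 7.

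The levels below are log2 intensities minus the 75th percentile of their own array, so that 0 is the signal of a probe at that percentile. The 75th percentile itself was an intensity of 1073 and 704 under CD and 969 and 909 under HFD. The highest intensity of any member was 271770, no spot was saturated, and 16 of the 17 member probes were well above background on all 4 arrays. A probe's brightness also depends on its sequence, so the members were not ordered by level. Brightness was compared between probes only to pick the probe of a gene, the 2 genes named first from each list, and a set of bright genes.

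The sequence in front of the start site is shown for 5 members, because these are the stretches where liver transcription factors are known to act on apolipoprotein genes: 3 neighbours on chromosome 9, Apob, and Apoc2 from chromosome 7. Each line gives the 200 bases before the first listed RefSeq start in GRCm38.p6, 5′ to 3′ on the gene's strand. Capitals mark matches, on either strand, to the TATA box (TATAAA), the nuclear receptor core (AGGTCA), the HNF4 core (CAAAGNNC), the FOXA core (TGTTTNC), the C/EBP core (TTGCNNAA) and the core of hypoxia response elements (ACGTG or GCGTG).
Apoa1 (chr9:46228430-46228629, plus strand): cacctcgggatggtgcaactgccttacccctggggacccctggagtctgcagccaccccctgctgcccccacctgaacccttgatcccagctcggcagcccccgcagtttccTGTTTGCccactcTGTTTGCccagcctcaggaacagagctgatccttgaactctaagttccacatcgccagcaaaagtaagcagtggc
Apoa4 (chr9:46240644-46240843, plus strand): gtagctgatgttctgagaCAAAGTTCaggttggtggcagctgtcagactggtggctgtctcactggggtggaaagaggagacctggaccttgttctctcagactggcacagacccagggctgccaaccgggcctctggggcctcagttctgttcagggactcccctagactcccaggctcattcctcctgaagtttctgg
Apoa5 (chr9:46268408-46268607, plus strand): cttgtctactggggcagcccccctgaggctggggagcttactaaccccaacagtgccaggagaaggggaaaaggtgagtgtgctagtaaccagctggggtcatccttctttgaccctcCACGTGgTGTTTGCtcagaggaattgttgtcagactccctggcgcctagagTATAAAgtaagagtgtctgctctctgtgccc
Apob (chr12:7977477-7977676, plus strand): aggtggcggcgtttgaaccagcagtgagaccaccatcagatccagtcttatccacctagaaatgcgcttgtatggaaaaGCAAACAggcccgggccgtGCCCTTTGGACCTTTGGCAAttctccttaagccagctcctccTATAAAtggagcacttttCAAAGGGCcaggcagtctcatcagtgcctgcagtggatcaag
Apoc2 (chr7:19677942-19678141, minus strand): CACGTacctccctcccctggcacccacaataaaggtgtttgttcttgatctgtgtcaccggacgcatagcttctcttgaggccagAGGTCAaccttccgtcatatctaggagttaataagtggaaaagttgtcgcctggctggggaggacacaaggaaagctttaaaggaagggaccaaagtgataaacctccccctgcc
The table of promoters used held 8 of the 10 members, without Apoc1 and Apoc3. Of those not shown, the 200 bases before the first listed start held only a FOXA match for Apoa2 and for Apom. The same stretch of Apoe held no match. A gene was counted if the 250 bases before any of its listed starts held the motif, and the share of all 27025 genes in the table was counted the same way. The FOXA core was found in 5 of these 8 genes and in 19.9% of all genes. The TATA box was found in 4 of 8, against 14.3% of all genes, and the HNF4 core in 3 of 8, against 17.4%. The nuclear receptor core was found in 2 of 8, against 15.8%, and the C/EBP core in 2 of 8, against 10.8%. The ACGTG core was found in Apoa5 and Apoc2, against 18.5% of all genes, and the GCGTG core in none of the 8, against 30.9%. Members have 1 to 3 listed starts, and a gene with more starts has more windows to match. In the Apob window an HNF4 match overlaps the C/EBP match, so the capitals there run together, and the ACGTG core of Apoa5 reads the same way on both strands and was matched on each. A match describes the letters only and is not evidence that a factor binds there.

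None of the 10 genes differed between HFD and CD by limma at an unadjusted p under 0.05 together with a 2-fold change, a rule that 0.769% of all 18205 genes passed. None passed the unadjusted p alone, against 2.85% of all genes. After Benjamini-Hochberg adjustment 0% of all genes passed, and the adjusted p was 1.00 at every member probe. The lowest unadjusted p among the 17 probes was 0.129, for Apoa5. At the 16 probes well above background on all arrays the estimates ran from -0.10 to 0.64 on the log2 scale, and for 8 of the 10 genes, by the brightest probe, the 95% confidence interval lay within a 2-fold change in either direction. The exceptions were Apoa4 and Apoa5, for which a change of more than 2-fold upward was within the interval. With 2 arrays a group, an exact permutation test of a single gene cannot give a two-sided p below 0.333, and the p-values measure only the spread between these 4 arrays.

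**Figure D1:**
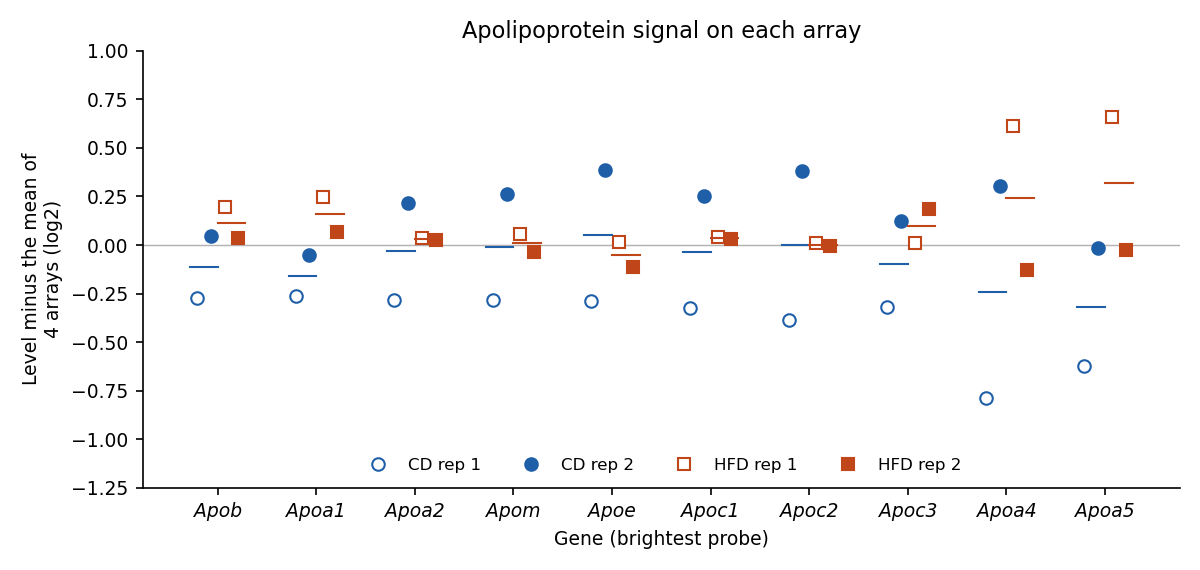
Level of each apolipoprotein gene (brightest probe) on the 4 arrays, as log2 difference from the gene's own mean over the arrays, with circles for CD, squares for HFD, open symbols for replicate 1, filled symbols for replicate 2 and short lines for group means. CD replicate 1 is the lowest array for all 10 genes, and the 2 HFD arrays lie between or near the 2 CD arrays for most of them.

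Among the proteins that form the particles, Apob, the large scaffold of very-low-density lipoprotein, had levels of 3.56 and 3.88 under CD and 4.03 and 3.87 under HFD. The groups overlapped narrowly, and the difference was 0.23 ± 0.20 (log2, SE), a fold of 1.17 with a 95% interval of 0.816 to 1.68. A second, dimmer Apob probe gave 0.05 ± 0.25. Apoa1, the main protein of high-density lipoprotein, had levels of 4.35 and 4.56 under CD and 4.86 and 4.68 under HFD. Both HFD arrays lay above both CD arrays, as they did for 23.0% of all genes. Among the 2115 genes at least as bright as the dimmest of the 7 bright members, which include Apoa1, this held for 865. Apoa1 was the only gene of the 10, by the brightest probe, with such a separation. Its difference was 0.31 ± 0.18, a fold of 1.24 with a 95% interval of 0.89 to 1.74.

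Apoa2, the second protein of high-density lipoprotein, was measured by 2 probes. The brighter one had levels of 7.81 and 8.31 under CD and 8.13 and 8.12 under HFD. The HFD arrays differed by 0.01 and sat between the CD arrays, and the difference between diets was 0.06 ± 0.23. The other probe gave 7.30 and 7.58 against 7.72 and 7.58, in which the HFD arrays were above the CD arrays by a margin of 0.01 at the closest, and a difference of 0.21 ± 0.19. Apom, a lipocalin that carries sphingosine 1-phosphate on high-density lipoprotein, had levels of 6.13 and 6.67 under CD and 6.47 and 6.37 under HFD. The HFD arrays again fell between the CD arrays, and the difference was 0.02 ± 0.24.

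Apoe, the ligand through which remnant particles bind their receptors on cells, had levels of 6.68 and 7.36 under CD and 6.99 and 6.86 under HFD. The CD arrays enclosed both HFD arrays, and the difference was -0.10 ± 0.28, a fold of 0.934 with a 95% interval of 0.56 to 1.56. Apoe was the only gene of the 10 with a negative estimate by its brightest probe, and its second probe gave -0.02 ± 0.30.

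Among the proteins that act on lipases and clearance, Apoc2, the activator of lipoprotein lipase, had levels of 6.69 and 7.46 under CD and 7.09 and 7.07 under HFD. The 2 HFD arrays were nearly equal and lay midway between the CD arrays, so that the difference was 0.00 ± 0.30, and a second probe gave -0.09 ± 0.38. Apoc1, a small protein that hampers the uptake of remnants, had levels of 5.81 and 6.38 under CD and 6.17 and 6.16 under HFD, and a difference of 0.07 ± 0.25. Apoc3, an inhibitor of lipoprotein lipase, had levels of -1.12 and -0.67 under CD and -0.79 and -0.61 under HFD by its brightest probe. The groups overlapped, and the difference was 0.20 ± 0.22. The other 2 Apoc3 probes, which are assigned to other transcripts of the gene, gave 0.28 ± 0.25 and 0.02 ± 0.16. The last of these was also the only probe of the 17 for which CD replicate 2 was not above CD replicate 1, with levels of -2.92 and -2.95 under CD and -2.95 and -2.89 under HFD.

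Apoa4 and Apoa5 had the highest estimates and the widest spread. Apoa4, made by the intestine and the liver and carried on chylomicrons and high-density lipoprotein, had levels of 0.47 and 1.56 under CD and 1.87 and 1.12 under HFD. Its arrays spanned a 2.63-fold range, HFD replicate 2 lay below CD replicate 2, and the difference was 0.48 ± 0.47, a fold of 1.40 with a 95% interval of 0.593 to 3.29. Apoa5, a liver protein that promotes the breakdown of triglyceride by lipoprotein lipase, had levels of -3.29 and -2.68 under CD and -2.01 and -2.69 under HFD. HFD replicate 1 alone stood above the other 3 arrays, and the difference was 0.64 ± 0.34, a fold of 1.55 with a 95% interval of 0.827 to 2.92. The second Apoa5 probe was well above background on CD replicate 2 only, with intensities of 10.1 and 18.2 under CD and 14.0 and 12.0 under HFD, so no fold is given for it. For both genes the arrays of a group differed by more than the 2 diets did in at least one group.

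**Figure D2:**
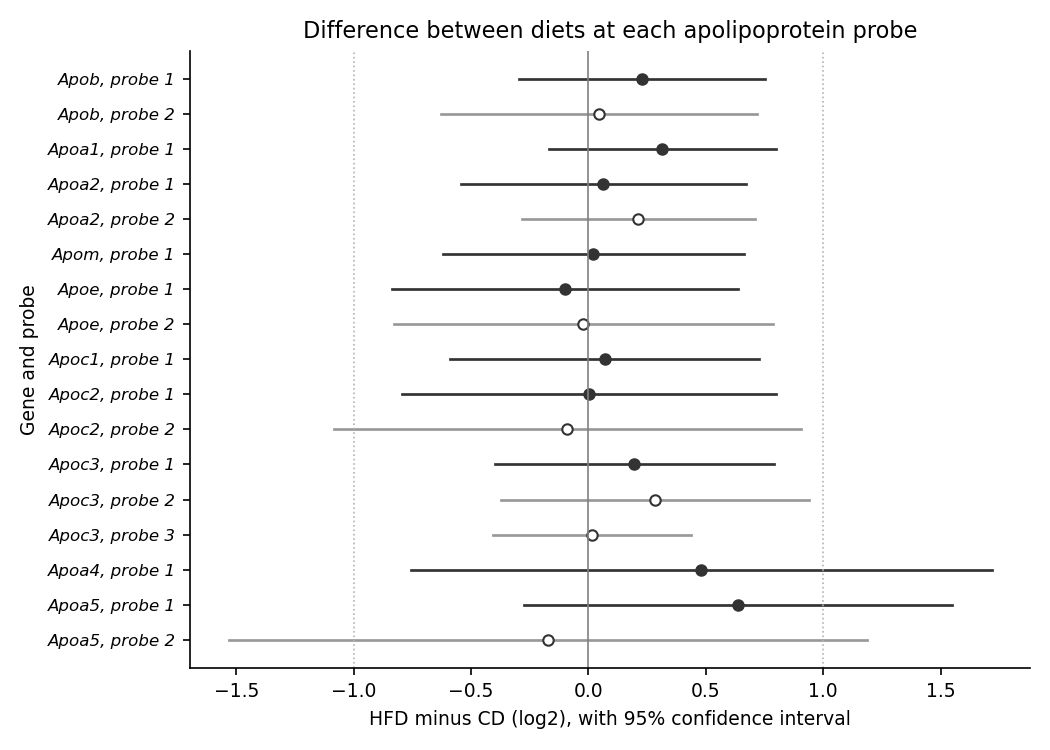
Difference between HFD and CD (log2) at each of the 17 probes, with its 95% confidence interval from limma. Filled points are the brightest probe of a gene, open points its other probes, and dotted lines mark 2-fold changes. Every interval includes 0.

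Arranged by position, the brightest probes of the 4 neighbours on chromosome 9 had estimates of 0.20 to 0.64. Those of the 3 genes on chromosome 7 had -0.10 to 0.07. Other Apoc3 probes gave 0.28 and 0.02, and the second probes of Apoc2 and Apoe gave -0.09 and -0.02. Apoc4, a chromosome 7 neighbour of Apoc2 that is not one of the 10 genes, had 0.38 ± 0.19, outside the chromosome 7 range. The grouping by position was looked at after the values were known. The difference between the 2 sets was not tested, and the interval of every gene in both sets includes 0.

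On the scaled levels, the members differed between the 2 CD arrays by more than between diets. Before scaling, the median member on CD replicate 2 was at 0.968 times its intensity on CD replicate 1. The 75th percentile was at 0.656 times, so the gap arises with the scaling. After it, CD replicate 2 was above CD replicate 1 for all 10 genes, against 10105 of the 18205 genes tested. In a set of 2115 bright genes it was above for 1697. That set held the genes at least as bright as the dimmest of Apoa1, Apoa2, Apob, Apoc1, Apoc2, Apoe and Apom. The median difference was 0.56 for the members, 0.06 over all genes tested and 0.22 over the 2115. Among the members the lowest difference between the CD arrays was that of Apoa1, at 0.21, and the highest that of Apoa4, at 1.09. The HFD arrays were closer, with replicate 2 below replicate 1 for 9 of the 10 genes, against 10443 of the 18205. The median difference of the members between the HFD arrays was -0.11, against -0.03 over all genes. Between diets the median estimate of the 10 genes was 0.13, against 0.04 over all genes tested and 0.11 over the 2115 bright genes. Estimates were above 0 for 9 of the 10 members, for 10488 of the 18205 genes and for 1680 of the 2115. For 15 of the 17 probes the gap between the CD arrays was larger than the gap between the diet means.

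The sign of most estimates therefore turned on which CD array was kept. Without CD replicate 1 the median of the members was -0.12, 7 of the 10 genes had a negative estimate, and Apoc2 (-0.38) and Apoe (-0.44) passed an unadjusted p under 0.05, where 17.3% of all genes did. Without CD replicate 2 the median was 0.39, all 10 estimates were positive, and Apoc1 (0.36) and Apoc2 (0.39) passed, where 15.1% of all genes did. Apoc2 thus passed in opposite directions. Without HFD replicate 2 only Apoa5 (0.98) passed, where 1.88% of all genes did, and without HFD replicate 1 no member passed. Each of these fits has a single array on 1 side, which is assumed to vary like the other group, and no adjusted p reached the threshold for a member. By their brightest probes, Apoa1, Apoa5 and Apob kept a positive estimate in all 4 fits. The second Apob probe gave -0.25 without CD replicate 1 and -0.02 without HFD replicate 1. It gave 0.34 without CD replicate 2 and 0.11 without HFD replicate 2.

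**Figure D3:**
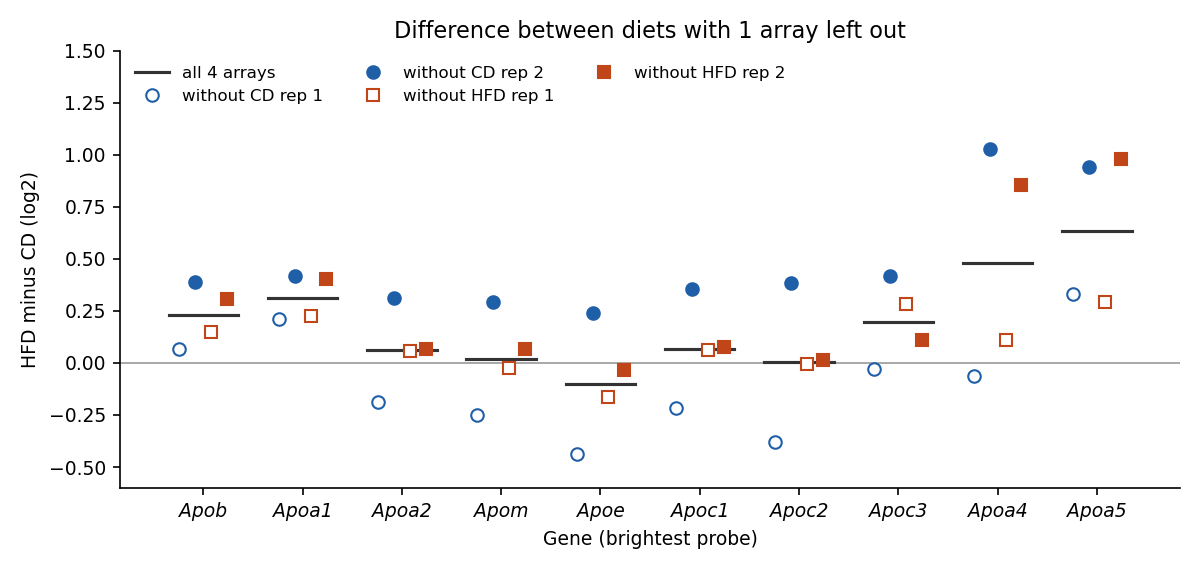
Difference between HFD and CD (log2, brightest probe) with all 4 arrays (lines) and with each array left out in turn (symbols). Leaving out CD replicate 1 puts 7 genes below 0, and leaving out CD replicate 2 puts all 10 above 0.

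The marker genes of the labelled tissue moved with the members. All 22 hepatoblast and hepatocyte markers were well above background on every array, led by Serpina1a, Alb and Afp, the main secreted proteins of the fetal liver. Their median difference between the CD arrays was 0.69 and between the HFD arrays -0.08, close to the 0.56 and -0.11 of the apolipoprotein genes, and none of them passed the test between diets (median -0.03). Their summed scaled signal was 2438 and 3833 under CD and 2994 and 2978 under HFD. In whole livers, fewer cells of a type and less RNA per cell cannot be told apart. When each array was centred on the median deviation of these 22 markers, an alternative added after seeing the data, the gap between the CD arrays lay between -0.14 and 0.13 for Apoa2, Apoc1, Apoc2, Apoe, Apom and Apoa5. It was -0.20 for Apoc3 and 0.45 for Apoa4, and it turned from 0.21 to -0.43 for Apoa1 and from 0.32 to -0.32 for Apob. The median deviations subtracted from CD replicates 1 and 2 were -0.33 and 0.31. The planned centring subtracted the median level of the markers instead, 5.88 and 6.85. The 2 centrings move the CD arrays apart by unlike amounts, so these gaps hold for the added centring only. No member passed the unadjusted p on the scale of the median deviation, against 0.912% of all genes. Both HFD arrays lay above both CD arrays for Apoa1, Apoa5, Apob and Apoc1, as for 7.46% of all genes. Both lay below both CD arrays for Apoe, as for 8.62%. For Apoc1 the higher CD level was 6.138 and the lower HFD level 6.142. For Apob these were 3.888 and 3.904. The second Apob and Apoe probes overlapped between groups, at 0.04 ± 0.28 and -0.03 ± 0.28. The median gene, with a gap of 0.06 between the CD arrays, did not share that of the markers. The shares over all genes are therefore not a like measure for the members. Apoa1 then had levels of 4.68 and 4.25 under CD and 4.83 and 4.72 under HFD, and a difference of 0.31 ± 0.31. Apoa5 had levels of -2.96 and -2.99 against -2.04 and -2.66, with a difference of 0.63 ± 0.34. Apoe had 7.01 and 7.05 against 6.96 and 6.89, a difference of -0.11 ± 0.27.

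Markers of the other sources of apolipoproteins were also read. The 13 visceral yolk sac markers, all well above background, had a median difference between diets of 0.22 and between the CD arrays of 0.46, and none passed the test. The 2 with the highest signal were Fgg, a fibrinogen chain that the hepatoblast list also holds, and Cited1. Cubn and Lrp2, the endocytic receptors that take up apolipoprotein-bearing particles in the yolk sac, had 0.64 ± 0.49 and 0.47 ± 0.38. Of 12 intestine markers 11 were tested, with a median of 0.13 and none past the test, and the median of CD replicate 2 minus CD replicate 1 was -0.31, the opposite sign to that of the members. Krt20, a keratin of differentiated gut epithelium, and Lgals2 had the highest signal. Fabp2, the intestinal fatty acid-binding protein, had 0.41 ± 0.21. Estimates were above 0 for 10 of the 11, and Cdh17 had -0.40 ± 0.43. The named genes did not all share the list's sign between the CD arrays. Krt20 (3.07 and 3.61) and Fabp2 (1.76 and 2.17) were higher on CD replicate 2, and Lgals2 (2.89 and 2.77) was lower. The 14 macrophage markers tested of 15 had a median of 0.07 between diets and of 0.48 between the CD arrays, led by Marco and Cd5l, and the 18 erythroid markers tested of 20 had 0.15 and 0.46, led by the globins Hba-a1 and Hbb-bt. The summed scaled signal of the 12 yolk sac markers other than Fgg ranged from 41.3 to 59.1 on the CD arrays and from 51.3 to 57.8 on the HFD arrays, and that of the intestine markers from 31.5 to 32.7 and from 32.3 to 40.3. The part of these cell types in the apolipoprotein signal was not tested.

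**Figure D4:**
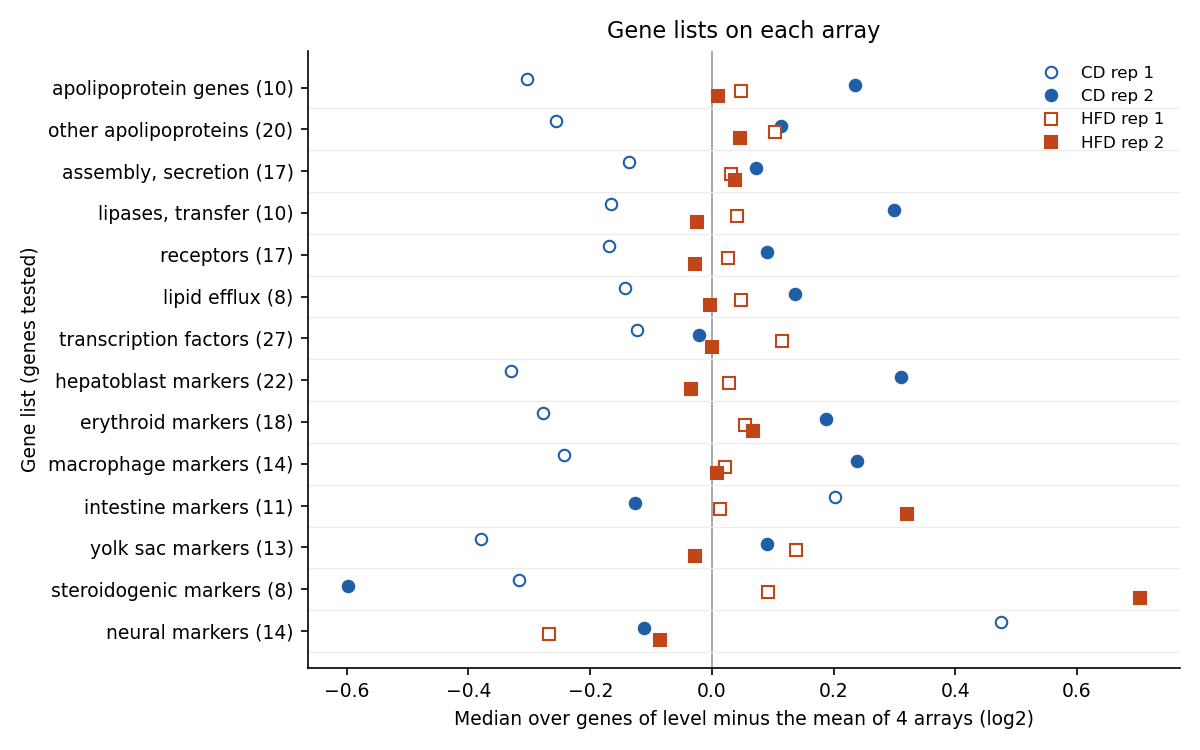
Median over the genes of each list of the level minus the gene's mean over the 4 arrays (log2), for each array, with circles for CD, squares for HFD, open symbols for replicate 1 and filled symbols for replicate 2. CD replicate 1 is lowest and CD replicate 2 highest for the apolipoprotein genes and for the hepatoblast, macrophage and erythroid markers, among others. The intestine, steroidogenic and neural markers do not follow this order. For the yolk sac markers and the transcription factors CD replicate 1 is lowest, but HFD replicate 1 is highest.

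The rest of the lipoprotein pathway was described by lists chosen for their function. Of 17 genes of lipoprotein assembly and secretion, none passed an unadjusted p under 0.05, with 13 estimates above 0 and a median of 0.07. Mttp, which loads lipid onto Apob, had 0.20 ± 0.18, Sar1b, the GTPase of the carriers that bring the particles out of the endoplasmic reticulum, had 0.07 ± 0.25, and the brightest genes of the list, Sec24c and Surf4, had 0.12 ± 0.17 and 0.26 ± 0.19. None of 10 tested genes for plasma lipases, transfer proteins and their regulators passed (median -0.06). Lpl, the lipase that Apoc2 activates, had 0.06 ± 0.30, and Lcat, which Apoa1 activates, had 0.22 ± 0.18. Lipg was under the 20th percentile of signal and was not tested.

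Of 17 lipoprotein receptors and endocytic adaptors, 10 had estimates above 0 and 7 below, none passed, and the median was 0.13. Scarb1, the receptor for high-density lipoprotein, had 0.23 ± 0.20, and Lrpap1, a chaperone of endocytic receptors, had 0.13 ± 0.21. Lrp1, a receptor for Apoe-bearing remnants, had -0.39 ± 0.17, with both HFD arrays below both CD arrays. None of 8 lipid efflux transporters passed (median 0.03), and Abca1, which hands cholesterol to Apoa1, had -0.02 ± 0.20, beside 0.30 ± 0.16 for Abca7 and 0.05 ± 0.31 for Abcb4.

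Among 20 other apolipoproteins and apolipoprotein-like proteins, 15 estimates were above 0 and the median was 0.13. Apoh and Clu, the brightest, had 0.04 ± 0.31 and -0.03 ± 0.23. Apoc4, the chromosome 7 neighbour of Apoc2, had 0.38 ± 0.19 with both HFD arrays above both CD arrays. Apol7a was the only gene of the list past an unadjusted p under 0.05, at 0.63 ± 0.20 (limma, adjusted p = 1.00), and its estimate turned to -0.20 when all its probes were averaged. The call was also lost with any 1 array left out, with both t-tests, with the replicate block, with normexp background correction, without scaling and with centring on the hepatoblast markers, with unadjusted p from limma or the methods' t-test between 0.051 and 0.318. Among 27 transcription factors known to act on apolipoprotein genes, 21 estimates were above 0 and the median was 0.13. Hnf4a, a nuclear receptor of hepatocytes with sites in several apolipoprotein promoters, had a difference of 0.34 ± 0.16, and both HFD arrays lay above both CD arrays. Rxra and Srebf1, the brightest factors, had 0.06 ± 0.16 and -0.14 ± 0.17. Nr0b2, a nuclear receptor without a DNA-binding domain, was the only factor with an unadjusted p under 0.05, but its probe was not well above background on any array. Apol7a, Lrp1, Hnf4a, Nr0b2 and the other genes of the pathway and marker lists that are not their 2 brightest were named after their values were seen.

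The 5 genes whose pattern over the 4 arrays was nearest to the mean of the 10 members, among 4900 candidates, were Cd302, Dmgdh, Exoc6, Aunip and Fuca2. Their root mean square difference from that mean was 0.01 to 0.03 on the log2 scale over 4 arrays. The mean of the members was -0.38 and 0.19 under CD and 0.19 and 0.00 under HFD, relative to its own average. Of all candidates 226 lay within 0.1 of it. Of the members themselves, Apoc1 was nearest to the mean, at 0.09, and Apoa4 farthest, at 0.31.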

How the data were processed

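Cy3-labeled cRNA was hybridized to a mouse array, 1 sample an array. The authors deposited scanner intensities, background-subtracted and spatially detrended by Agilent Feature Extraction 11.0.1.1 and not scaled between arrays, the median spot and background intensities, flags given as a score of 0 or 1, and a table of normalized signal for 41471 probes. That deposited signal was the intensity divided by 1 constant per array. From the intensities, log2 values of a probe's spots were averaged without flagged spots, and the array's 75th percentile was subtracted. After the study's methods, probes whose signal fell under an array's 20th percentile, or with a CV over 50% under both conditions, were left out, so that 41332 of 56605 were tested. Unlike in the methods, which name log scale values for this filter, the CV was computed from linear signal, and the CV of log2 signal was an alternative. Probes were named through RefSeq transcripts (32994 had a symbol), and a gene was represented by its brightest probe. HFD was compared with CD with the moderated linear model of limma 3.58.1 (R 4.3.3) on all 4 arrays, without covariates, with Benjamini-Hochberg adjustment over all tested probes, and tables and plots were made with Python, pandas and matplotlib. In arrays simulated at a spread of 0.2, the test called 42% of changes of 1 on the log2 scale and 100% of changes of 2. The simulation gave every probe that same spread. By brightest probe, the SD of the members between the CD arrays ran from 0.15 for Apoa1 to 0.77 for Apoa4. The simulated rates therefore do not carry over to the members. Members, lists and tests were chosen with earlier results of these data known. All arrays came from 1 slide and 1 scan time. Named genes were every member, the 2 brightest genes of each list, genes past both cutoffs, and the 5 nearest patterns, with others marked in the text and some genes not reported here. The number of arrays limits the precision.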

Additional observations from a re-analysis of the deposited data

How the results depend on the processing

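The count of apolipoprotein genes past both cutoffs stayed at 0 under all 20 alternatives. The count past an unadjusted p under 0.05 was 0 to 2 with 1 array left out and 0 otherwise. The median of the members ran from -0.12 to 0.39 with 1 array left out and from 0.11 to 0.24 under the other 16 settings. Of 160 estimates of single members under those settings, 154 kept their sign. Apoc2 turned to -0.042 with quantile normalization, to -0.043 with the mean over probes, to -0.0092 with normexp background correction and to -0.0033 with centring on the median deviation of the hepatoblast markers. Apom turned to -0.047 with quantile normalization, and Apoe to 0.012 without scaling between arrays. Apoa5 kept its sign but fell from 0.64 to 0.23 with the mean over probes, which takes in its dim second probe. With normexp background correction Apoa5 was at 0.43. With 1 array left out, Apoa2 ran from -0.19 to 0.31, Apoa4 from -0.064 to 1.03, Apoc1 from -0.22 to 0.36, Apoc2 from -0.38 to 0.39, Apoc3 from -0.027 to 0.42, Apoe from -0.44 to 0.24 and Apom from -0.25 to 0.29. Apol7a turned to -0.20 with the mean over probes. Pathway and regulator genes past both cutoffs numbered 0, 1 without the 20th percentile filter, which let in Lipg, and 0 to 2 with 1 array left out. The cause of these changes was not tested. With the replicate block, no member passed, the median of the members was 0.13 and Apoa5 stayed at 0.64. The block cannot move an estimate, since each replicate number holds both diets. The numbers were not taken as pairs, since same-numbered samples deviated with a correlation of -0.10. Saturated spots could not be left out because there were 0, and a slide or scan block could not be fitted with 1 of each.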

Other observations

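With the CV filter in place, among the marker lists that of steroidogenic cells held the genes past both cutoffs between diets. Cyp11a1, the enzyme that starts steroid synthesis from cholesterol, had levels of -1.56 and -2.78 under CD and -0.72 and 0.13 under HFD, a difference of 1.87 ± 0.52 (log2, SE). Nr5a1, the nuclear receptor of adrenal and gonadal cells, had -1.74 and -2.32 against -1.09 and -0.57, a difference of 1.20 ± 0.30. Both adjusted p-values from limma were 1.00. Neither gene passed with the methods' t-test or without CD replicate 2, where the estimates were 1.27 and 0.90. All 8 tested genes of the list had estimates above 0, with a median of 0.68, and their order of arrays differed from that of the apolipoprotein genes, with HFD replicate 2 highest. Of 14 neural and glial markers, 12 had estimates below 0, with a median of -0.36, and Fabp7, Tubb3, Map2 and Dcx passed an unadjusted p under 0.05 without reaching a 2-fold change. Stmn2 and Nes, the brightest of them, did not pass. The trophoblast and decidua markers depended on the CV filter. With it, 6 of 16 were tested, with a median of -0.23 and none past the cutoffs, and Psg23 and Gcm1 were the brightest. The linear CV filter left out 7 others because of their spread within both groups. Without that filter, or with the CV of the log2 signal, 13 were tested, the median was -3.80 and these 7 passed both cutoffs, at -3.80 to -4.60 with both HFD arrays below both CD arrays (limma, adjusted p = 1.00), and in the deposited table the median was -3.86. With the CV filter, 0.769% of all genes passed both cutoffs. Both HFD arrays were then below both CD arrays for 1842 of 18205. The shares over all genes without the filter are not given here, so these 7 have no like measure beside them. Tpbpa, a marker of spongiotrophoblast, had levels of 3.01 and 4.80 under CD and 1.00 and -1.01 under HFD. Tpbpa, Fabp7, Tubb3, Map2 and Dcx were named after their values were seen.

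Before scaling, the apolipoprotein genes were among those whose intensity held up on the dimmer CD array. The 75th percentile of CD replicate 2 was 0.656 times that of CD replicate 1 and the median gene was at 0.686 times, while the median of the 10 members was 0.968 times, from 0.759 for Apoa1 to 1.40 for Apoa4. On these unscaled intensities both HFD arrays were above both CD arrays for 7 of the 10 members and for 18.5% of all genes, and the median estimate was 0.24 for the members and 0.15 for all genes. Most members are bright, and the share among the 2115 bright genes is not given on this scale. On scaled levels such a separation held for 865 of the 2115, against 4194 of all 18205. The share over all genes is therefore not a like measure for the members. The comparison without scaling was added after seeing the data, and no member passed an unadjusted p under 0.05 in it.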
